A study of Arabidopsis thaliana with 6 samples.

Results

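Transcripts of 10 Arabidopsis thaliana proteins that assemble the large ribosomal subunit were examined in the first pair of young leaves. The genes were PES (AT5G14520_at), BOP1 (AT2G40360_at), WDR12 (AT5G15550_at), EBP2 (AT3G22660_at), BRX1-2 (AT1G52930_at), PPAN (AT5G61770_at), SWA2 (AT1G72440_at), NOC2 (AT2G18220_at), NSN1 (AT3G07050_at) and NUG2 (AT1G52980_at), and their probe sets were 10 of 21428 on the array. They were picked by locus with the difference between the genotypes already known, so that difference is given for them as a description and without a test. The RefSeq gene table carries the name of 5 of them (PES, NUG2, NSN1, SWA2 and PPAN), and the names of the other 5 come from the definition of the set.

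The study compared AN3-GR plants with wild type plants, both of accession Columbia-0, on 3 ATH1 arrays each. AN3-GR is the coactivator AN3 fused to the steroid-binding domain of the glucocorticoid receptor, which holds a fused protein inactive until a steroid is given. Plants of both genotypes grew in vitro for 8 days under days of 16 h light and 8 h dark, and then spent 8 h on 5 µM dexamethasone before leaves 1 and 2 were dissected. The promoter of the transgene, the number of lines and the number of plants per array are not given in the sources used here. AN3-GR plants without dexamethasone were not analysed here, so a standing difference between the lines and a response to activation of the fusion cannot be told apart. In whole leaves, more cells of a type and more RNA per cell cannot be told apart either.

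A eukaryotic ribosome is built in the nucleolus, where the precursor of the ribosomal RNAs is transcribed, cut and folded while assembly factors and ribosomal proteins bind to it. The precursor of the large subunit then passes through the nucleoplasm to the cytoplasm, and factors leave it step by step, several of them through GTP hydrolysis. Dividing and growing cells make many ribosomes, and Arabidopsis mutants in assembly factors or ribosomal proteins often have narrow or pointed leaves with fewer cells.

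AN3 was measured first, as a check of the labels. It read 10.56, 10.02 and 10.55 on the AN3-GR arrays and 7.39, 6.98 and 7.61 on the wild type arrays (log2 expression, replicates 1 to 3). The AN3-GR arrays lay well above the wild type arrays. The probe set reads the native gene as well as the fusion. The 3 measured leaf markers, LHCA1, a light-harvesting protein, and the leaf development regulators YAB1 and AS1, read 9.16 to 12.57 in the genotype means. The shoot meristem markers STM, CLV3, WUS and KNAT1 read 3.15 to 4.20, around the 25% point of levels over the array, 4.06. The root hair markers RHD6 and EXPA7 read 3.63 to 4.42 and COBL9 5.60 to 5.72.

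All 10 large-subunit factors were higher on every AN3-GR array than on any wild type array. Their log2 changes, AN3-GR minus wild type, ran from 0.31 for NUG2 to 0.67 for EBP2, with a median of 0.54, or a 1.46-fold difference. The median over all 21428 probe sets was −0.02. Over the 4308 probe sets whose mean level lay within the range of the 10 genes, 8.20 to 11.19, it was 0.03, and 56.8% of these were positive. Every AN3-GR array lay above every wild type array for 12.8% of all probe sets and for 21.9% of those within that range of levels. In limma with Benjamini-Hochberg adjustment over all probe sets, 3 of the 10 (EBP2, NSN1 and BOP1) passed an adjusted p of 0.05 as higher, against 0.56% of all probe sets in that direction. Since the genes were chosen with this contrast known, neither count is evidence about them.

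**Figure D1:**
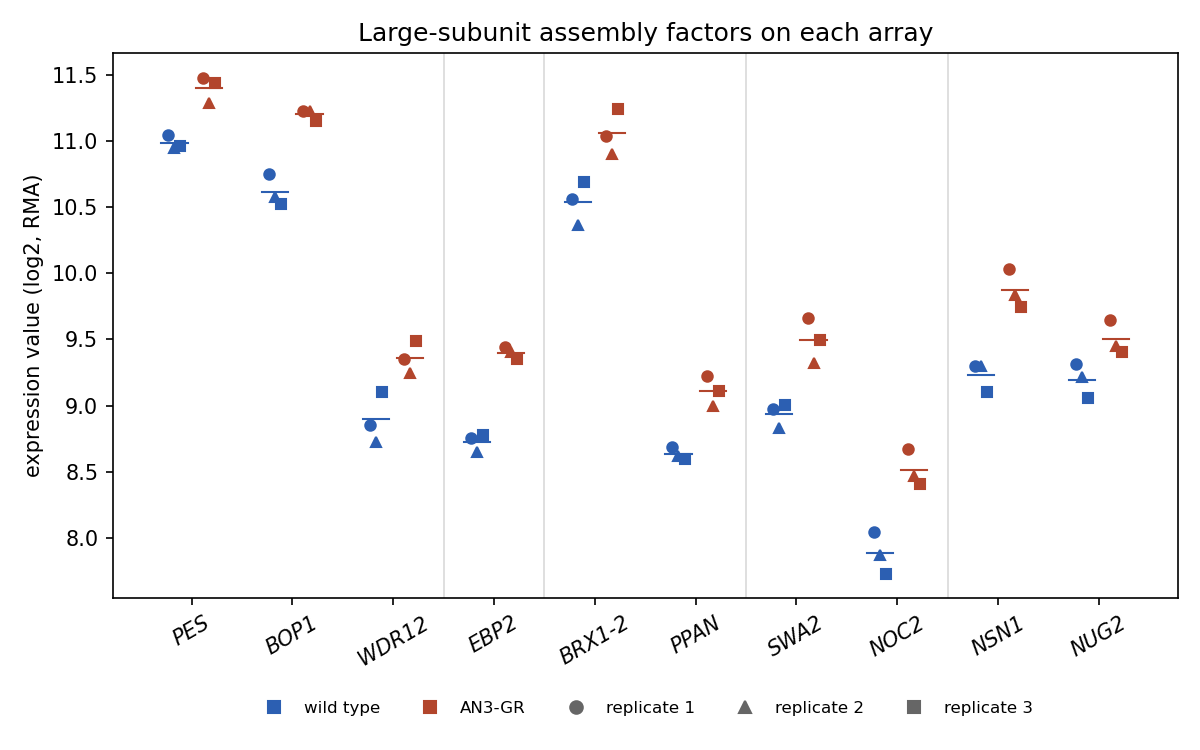
Expression values (log2, RMA) of the 10 large-subunit assembly factors on each of the 6 arrays, grouped from left to right as the PeBoW proteins, EBP2, the Brix proteins, the Noc proteins and the GTPases. Circles, triangles and squares are replicates 1, 2 and 3, short lines are genotype means (n = 3), and for each gene the AN3-GR points lie above the wild type points.

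PES, BOP1 and WDR12 encode the subunits of the PeBoW complex, which is needed to process the ribosomal RNA of the large subunit and is known in yeast, animals and Arabidopsis. PES, the Pescadillo protein, read 11.48, 11.28 and 11.43 on the AN3-GR arrays and 11.05, 10.95 and 10.96 on the wild type arrays. Its lowest AN3-GR array lay 0.24 above its highest wild type array. The log2 change was 0.41 (SE 0.09), a 1.33-fold difference.

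BOP1, a WD-repeat protein, read 11.23, 11.23 and 11.15 in AN3-GR and 10.75, 10.58 and 10.52 in wild type. The AN3-GR arrays lay close together (SD 0.04), and the wild type array of replicate 1 was the highest of its group. The change was 0.59 (SE 0.10). WDR12, the other WD-repeat subunit, read 9.36, 9.24 and 9.48 in AN3-GR and 8.86, 8.72 and 9.11 in wild type. Its wild type array of replicate 3 came within 0.14 of the lowest AN3-GR array, and its wild type SD, 0.19, was the highest among the 10 genes. The change was 0.46 (SE 0.12), or 1.38-fold.

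EBP2 encodes a nucleolar protein whose yeast counterpart acts in early assembly of the large subunit. It read 9.44, 9.40 and 9.35 on the AN3-GR arrays and 8.76, 8.65 and 8.78 on the wild type arrays. The genotypes were 0.57 apart at their nearest arrays, while the SD within them was 0.04 and 0.07. Its change of 0.67 (SE 0.09, 95% interval 0.47 to 0.87), a 1.59-fold difference, was the highest of the 10 and stood at rank 88 among all probe sets.

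BRX1-2 and PPAN belong to the Brix family of RNA-binding assembly factors. BRX1-2 is related to yeast Brx1, and PPAN to Peter Pan of Drosophila. BRX1-2 read 11.04, 10.90 and 11.24 in AN3-GR and 10.56, 10.36 and 10.69 in wild type. In both genotypes replicate 3 was the highest and replicate 2 the lowest, and the change was 0.52 (SE 0.12), or 1.44-fold. PPAN read 9.22, 9.00 and 9.11 in AN3-GR and 8.69, 8.62 and 8.60 in wild type, with a change of 0.48 (SE 0.10), or 1.39-fold. The PPAN wild type arrays lay close together (SD 0.05).

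SWA2 and NOC2 are relatives of the yeast Noc proteins, which bind to each other and accompany precursors of the large subunit out of the nucleolus. SWA2, SLOW WALKER 2, is needed for the development of the female gametophyte in Arabidopsis. It read 9.66, 9.32 and 9.50 in AN3-GR and 8.97, 8.83 and 9.01 in wild type. The AN3-GR array of replicate 2 was the lowest of its group, and still 0.32 above the highest wild type array. The change was 0.56 (SE 0.11), or 1.47-fold. NOC2 read 8.67, 8.47 and 8.41 in AN3-GR and 8.05, 7.87 and 7.73 in wild type. Replicate 1 was the highest in each genotype, and the change was 0.63 (SE 0.12), or 1.55-fold.

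NSN1, nucleostemin-like 1, and NUG2, nuclear/nucleolar GTPase 2, encode GTPases that act on precursors of the large subunit. NSN1 read 10.03, 9.84 and 9.74 in AN3-GR and 9.30, 9.30 and 9.10 in wild type, a change of 0.64 (SE 0.11), or 1.56-fold. NUG2 read 9.65, 9.45 and 9.41 in AN3-GR and 9.31, 9.22 and 9.06 in wild type, a change of 0.31 (SE 0.11), or 1.24-fold. The NUG2 groups were only 0.10 apart at their nearest arrays, the narrowest gap of the 10, and the 95% interval of its change was 0.06 to 0.55.

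Of the GTPases, NSN1 had the second highest change of the 10 and NUG2 the lowest. Taking the difference between the genotypes within each replicate number, NSN1 gave 0.74, 0.54 and 0.64 and NUG2 gave 0.34, 0.23 and 0.35. Each NSN1 difference exceeded each NUG2 difference. The pairs within the Noc and Brix groups were nearer to each other, with changes 0.07 and 0.05 apart, and the PeBoW genes spanned 0.17. The standard errors of single genes were 0.09 to 0.12, and the GTPases were 0.33 apart. No difference between members was tested, since the members were chosen on the same contrast.

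**Figure D2:**
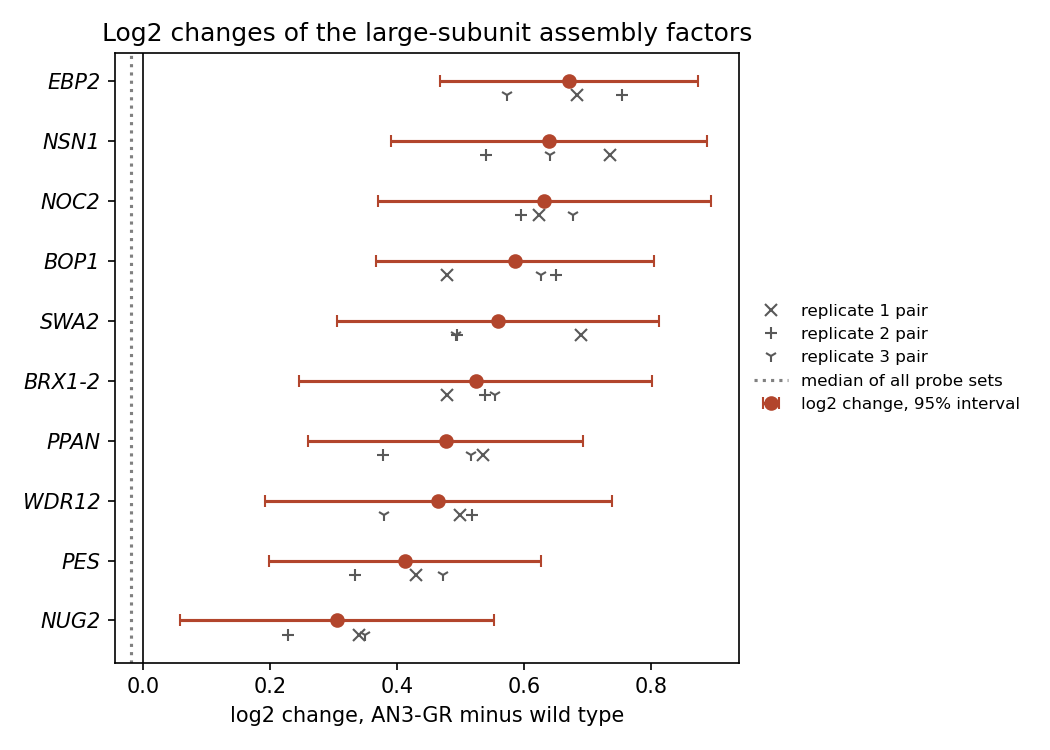
Log2 change (AN3-GR minus wild type, x axis) of each of the 10 genes, ordered by size, with the 95% interval of the limma fit over 6 arrays. The small marks under each point are the differences between arrays of the same replicate number, all above 0, and the dotted line is the median of all probe sets at −0.02.

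The 10 genes did not keep the same order among the replicates of a genotype. Their mean level was 9.98, 9.81 and 9.88 on AN3-GR replicates 1, 2 and 3, and 9.43, 9.31 and 9.35 on the wild type replicates. The mean was thus lowest on replicate 2 of both genotypes, although NOC2, NUG2, NSN1 and BOP1 were lowest on replicate 3. Replicate 2 lay under replicate 1 for 10 of the 10 genes in AN3-GR and for 9 of 10 in wild type, against 50.3% and 45.4% of all probe sets. This is not particular to the 10 genes. The means of the 4 other ribosome gene lists described below were also lowest on replicate 2 of both genotypes. The small-subunit processome, for example, averaged 9.13, 8.98 and 9.08 in AN3-GR and 8.63, 8.52 and 8.59 in wild type. The labels give the same replicate numbers to both genotypes but do not say what a number marks, and replicates 1, 2 and 3 are names, not an order.

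Replicate 3 divided the genes. BRX1-2 was 0.27 above the mean of the other replicates in AN3-GR and 0.22 in wild type, and WDR12 was 0.19 and 0.32 above. NOC2 fell short of that mean, at −0.16 and −0.23, as did NSN1 at −0.19 and −0.20, NUG2 at −0.14 and −0.21, and BOP1 at −0.08 and −0.14. SWA2 was slightly above in both genotypes (0.01 and 0.11), and EBP2, PES and PPAN differed in sign between them. In all 7 of 10 genes had the same sign in both genotypes. Of all probe sets 66.5% did too, so the share among the 10 is near that of the array as a whole. The WD-repeat genes of PeBoW, BOP1 and WDR12, stood on opposite sides.

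**Figure D3:**
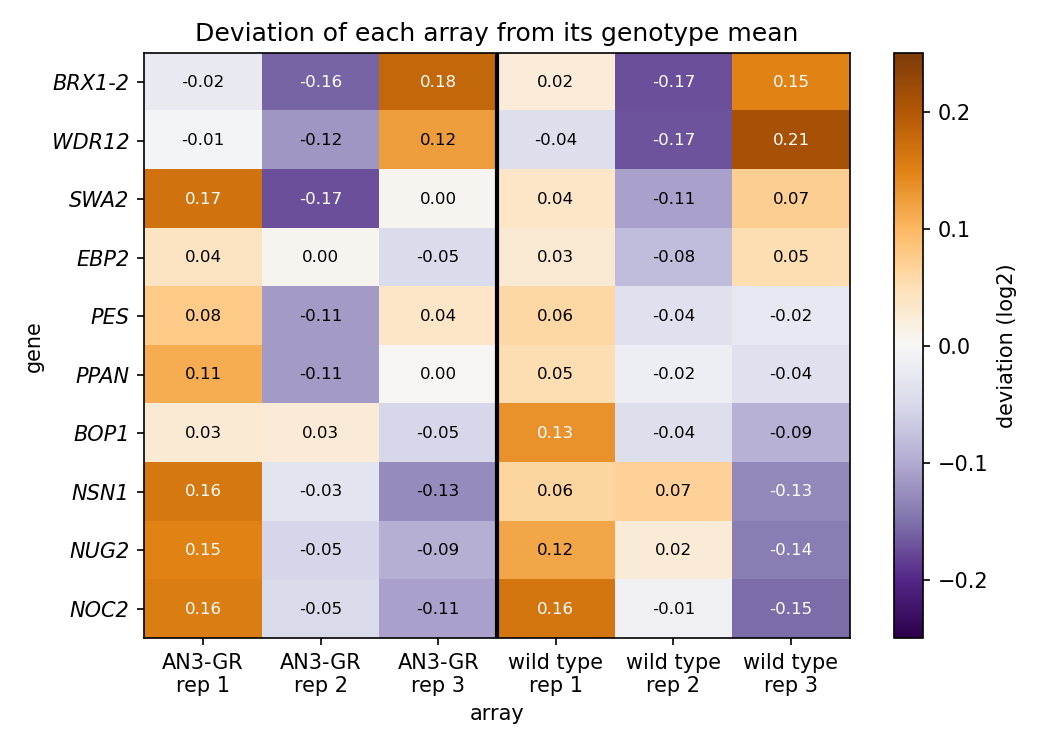
Deviation of each array (columns) from the mean of its genotype for each of the 10 genes (rows), on the log2 scale, with the value printed in each cell. BRX1-2 and WDR12 are highest on replicate 3 of both genotypes, while NOC2, NUG2, NSN1 and BOP1 are lowest there.

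Other genes of ribosome assembly were taken from lists recalled from the literature. These lists were chosen with earlier results of these data known. Their counts and adjusted p values below describe these arrays and are no independent support. The lists held 86 loci, of which 81 were measured, and the RefSeq table carries the recalled name for 35, so the membership of the other 51 was not checked and those are given by locus. The first list held 31 measured factors of the nucleolus and nucleoplasm that act on the large subunit. All 31 were positive, with a median log2 change of 0.45, and 29 had every AN3-GR array above every wild type array. Such a separation was seen for 12.8% of all probe sets and 21.9% of those with mean levels of 8.20 to 11.19. In limma with Benjamini-Hochberg adjustment, 0.56% of all probe sets rose. In the list 7 rose and 0 fell.

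Among these was OLI2, OLIGOCELLULA 2, a relative of the yeast ribosomal RNA methyltransferase Nop2 and named for a mutant whose leaves have few cells. It read 10.78, 10.81 and 10.80 in AN3-GR and 10.27, 10.25 and 10.37 in wild type. The groups were far apart relative to their spread, and the change was 0.50 (SE 0.09, limma adjusted p = 0.0443). The others that rose were AT4G25730 (0.77), AT4G26600 (0.72), AT1G79150 (0.68), AT1G13160 (0.61), AT2G21440 (0.57) and AT2G40430 (0.53), with limma adjusted p from 0.0319 to 0.0480.

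AT4G25730 had the largest change of the list, with AN3-GR arrays at 9.14, 8.88 and 9.01 and wild type arrays at 8.34, 8.08 and 8.31. AT1G10300 had the smallest, 0.03 (SE 0.12), and its levels of 3.39 to 3.75 fall in the weakest 25% of the array, which says little about it. Next came AT1G25260 at 0.26 and AT5G05450 at 0.30. REBELOTE (RBL), at 0.51 (SE 0.11, limma adjusted p = 0.0646), did not pass without the replicate number as a block, and neither did AT3G15460 at 0.39 (SE 0.12, limma adjusted p = 0.144). With the block both passed, at limma adjusted p of 0.0261 and 0.0364. Cross-hybridisation between related genes was not tested.

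The list of factors that act during export and in the cytoplasm had 10 measured genes, with 8 positive and a median of 0.29. Here 0 passed in limma after adjustment, and 6 were higher at an unadjusted p under 0.05, a share to be read against 10.1% of all probe sets. The highest were AT3G22980 at 0.49, AT1G43860 at 0.45 and REIL2 at 0.44, a zinc finger protein whose yeast relative Rei1 works in late maturation of the large subunit. REIL2 read 9.58, 9.40 and 9.43 in AN3-GR and 9.03, 9.07 and 8.99 in wild type, without overlap.

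Gene pairs of this list differed in size. REIL1 had a change of 0.11 (SE 0.10) beside 0.44 (SE 0.09) for REIL2. EIF6A, the factor that keeps the subunits apart until the large one is mature, had 0.37 (SE 0.11), while EIF6B had −0.04 (SE 0.14) at a weak level of 4.15 and 4.19 in the genotype means. The LSG1 GTPases, which release the export adaptor NMD3 in yeast, had 0.17 (SE 0.16) for LSG1-1 and −0.14 (SE 0.15) for LSG1-2. NMD3 itself had 0.34 (SE 0.10). None of the differences within pairs was tested.

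The small-subunit processome, the particle that begins assembly of the small ribosomal subunit, gave values close to those of the large-subunit factors. All 22 measured genes were positive with a median of 0.46, and in all 22 the genotypes did not overlap. AN3-GR lay wholly above wild type for 12.8% of all probe sets and 21.9% of those with mean levels of 8.20 to 11.19. In limma 0.56% of all probe sets rose, and in this list 4 rose and 0 fell. SWA1, SLOW WALKER 1, read 9.44, 9.49 and 9.36 in AN3-GR and 8.69, 8.74 and 8.52 in wild type, a change of 0.78 (SE 0.10, limma adjusted p = 0.0216). The other 3 were AT1G06720 (0.74), TORMOZ or TOZ (0.68) and AT1G69070 (0.59), with limma adjusted p of 0.0196, 0.0276 and 0.0418. The smallest changes were those of the ribosomal RNA dimethylase gene DIM1A (0.26), ENP1 (0.27) and AT5G14050 (0.37).

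The ribosomal proteins of the large subunit had smaller changes. All 18 measured genes were positive, with a median of 0.16 and a range of 0.04 to 0.36. In limma 0 passed after adjustment and 4 of the 18 were higher at an unadjusted p under 0.05, where 10.1% of all probe sets were. The largest were RPL16A at 0.36 (SE 0.10), RPL10B at 0.34 (SE 0.14) and RPL23AB at 0.30 (SE 0.09). The smallest were RPL10A at 0.04, RPL5B at 0.07 and RPL23AA at 0.09. RPL5A and RPL5B, also known as OLIGOCELLULA 5 and 7, encode the protein that carries the smallest ribosomal RNA into the large subunit. RPL5A read 12.64, 12.47 and 12.59 in AN3-GR and 12.27, 12.35 and 12.35 in wild type (change 0.24, SE 0.09), and RPL5B read 12.44, 12.27 and 12.49 against 12.31, 12.32 and 12.35 with overlap. Of the 18, only RPL16A and RPL10B had mean levels within the 8.20 to 11.19 of the 10 large-subunit factors, and the rest lay above it. No difference between lists was tested, nor whether the high level has a part in the smaller changes.

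With the replicate number as a block, more members of each list passed in limma, against 3.59% of all probe sets called higher in that fit. The counts were 23 of 31 other nuclear factors, 4 of 10 late factors, 18 of 22 processome genes and 1 of 18 ribosomal protein genes (RPL16A), and 9 of the 10 large-subunit factors, all but NUG2. The counts of the unblocked fit, other than that of the ribosomal proteins, changed when single arrays were left out, and the cause was not tested. When any AN3-GR array was left out, or the wild type array of replicate 1 or of replicate 2, 0 genes of any of these lists passed in limma, while 26 to 29 nuclear factors, 5 to 6 late factors, 20 to 22 processome genes and 2 to 4 ribosomal protein genes were higher at an unadjusted p under 0.05 (9 to 10 of the 10 large-subunit factors). The share of all probe sets higher at that unadjusted threshold was 10.1% in the fit to all 6 arrays and was not computed for these fits. Without wild type replicate 3 the counts after adjustment were 12, 2, 7 and 0, and 7 for the 10 large-subunit factors. In that fit 779 of all 21428 probe sets passed, in either direction. The medians of the lists stayed positive in each of these fits. Since the 10 genes were chosen with this contrast known, none of their counts is evidence about them.

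**Figure D4:**
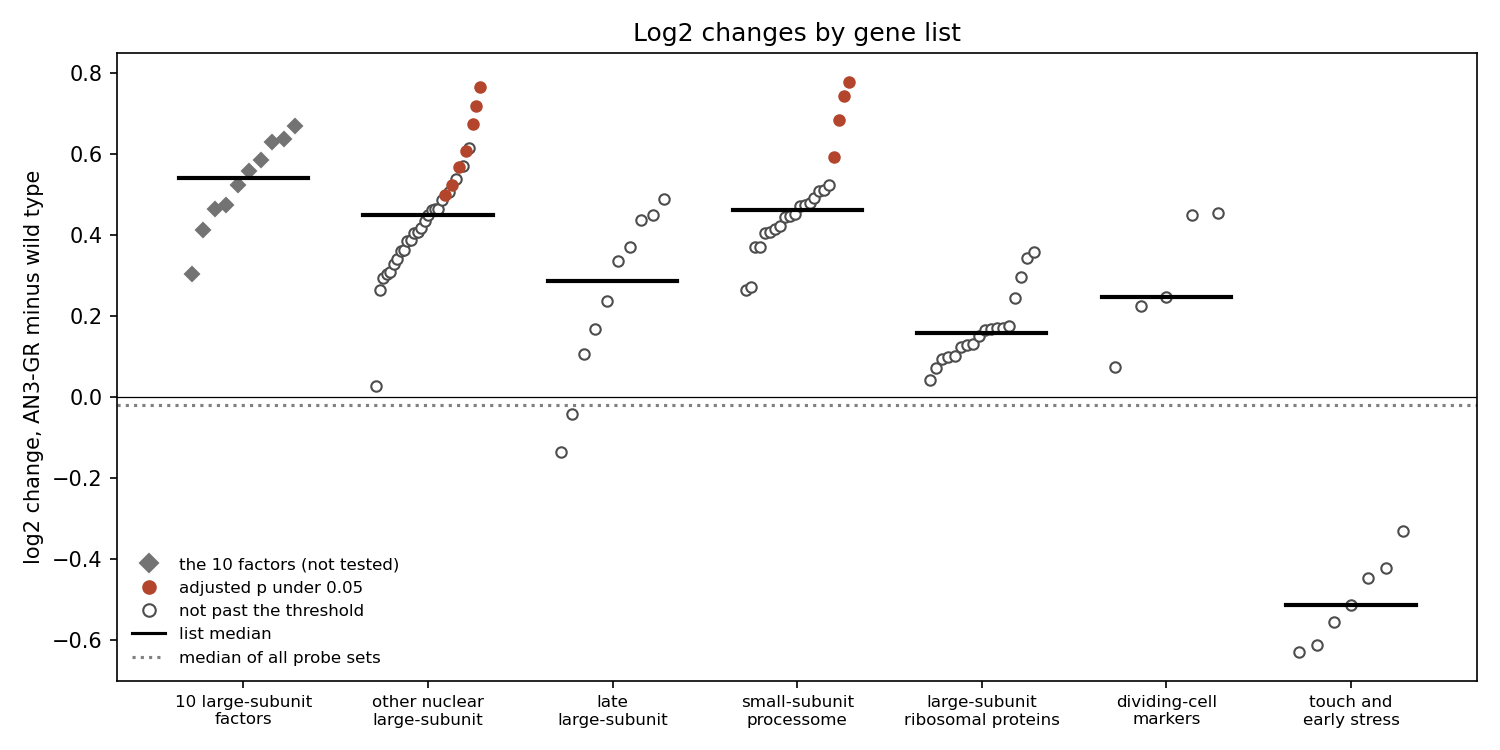
Log2 change (AN3-GR minus wild type, y axis) of each measured gene in 7 lists (x axis), sorted within a list, with thick lines at the list medians. Filled circles passed an adjusted p of 0.05 in limma, the 10 large-subunit factors (diamonds) carry no test, and the dotted line is the median of all probe sets.

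Markers of dividing cells and touch-responsive genes were measured on the same arrays. The 5 measured dividing-cell markers (CYCB1;1, KN, CDKB2;1, MCM2 and PCNA1) were positive with a median of 0.25, 0 passed in limma and 2 were higher at an unadjusted p under 0.05, beside the 10.1% of all probe sets. The same 2, CDKB2;1 and MCM2, passed with the replicate block (limma adjusted p of 0.0276 and 0.0398), against 3.59% of all probe sets called higher in that fit. KN had a change of 0.07 (SE 0.10). The mean level of the 5 was 9.32 to 9.52 on the AN3-GR arrays and 8.99 to 9.24 on the wild type arrays. The 7 touch and early stress genes were negative with a median of −0.51, 0 passed in limma and 6 were lower at an unadjusted p under 0.05, where 7.86% of all probe sets were. With the replicate block 5 of the 7 (TCH3, TCH4, ZAT12, WRKY40 and CBF1) passed as lower, with limma adjusted p from 0.0214 to 0.0469, against 3.03% of all probe sets called lower in that fit. The mean level of the 7 was 8.68 to 9.28 on the AN3-GR arrays and 9.20 to 9.65 on the wild type arrays. The 4 shoot meristem markers had a median of −0.05 and the 3 measured root markers −0.12. Whether cell composition or handling has a part in the values of the large-subunit factors was not tested.

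The probe sets whose profile was most like the mean profile of the 10 genes were ranked by Pearson's r over the 6 arrays. The ranking covered 625 probe sets outside the 10 genes, with a mean level above the median of all and an SD over the arrays of at least 0.33, the median of the 10. The 6 array values behind each r share the split into genotypes, which makes a high r easy to reach. The 8 highest were AT3G10530 (0.996), AT1G79150 (0.996), AT4G25730 (0.993), AT1G76120 (0.993), AT1G10490 (0.992), AN3 (0.988), SAD2 (0.987) and AT1G61640 (0.987). After each genotype was centred on its own mean, r was 0.960 for AT1G79150, 0.953 for AT3G10530, 0.930 for AT1G10490, 0.914 for AT4G25730, 0.863 for AT1G76120, 0.777 for AT1G61640, 0.727 for SAD2 and 0.693 for AN3. AT1G79150 and AT4G25730 are loci of the nuclear large-subunit list.

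AT3G10530 read 8.87 in AN3-GR and 8.28 in wild type as genotype means, with a change of 0.59 (SE 0.10, limma adjusted p = 0.0414). An r of at least 0.9 was reached by 21 of the 31 other nuclear factors (67.7%), 6 of the 10 late factors, 17 of the 22 processome genes (77.3%) and 8 of the 18 ribosomal protein genes (44.4%). Over all probe sets it was reached by 966, or 4.51%. Among the 10 genes themselves, r with the mean of the other members ran from 0.852 for WDR12 to 0.992 for PPAN, and BRX1-2 (0.881) and NUG2 (0.870) were also at the low end. These values were not centred within genotypes. The 10 genes were chosen with this contrast known, so a high r among them is no evidence that they vary together. Their mean profile carries the difference between the genotypes, so a listed gene that is higher in AN3-GR tends to a high r. The shares of the lists are therefore no separate evidence that those genes vary with the 10.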

How the data were processed

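The authors deposited log2 expression values per probe set, made with RMA and limma per the submitters' processing notes, which give no versions. RMA brings the arrays to nearly the same distribution, so a change common to every gene cannot be seen, and it compresses weak signals. The medians of the deposited arrays still ran from 6.22 to 6.32. With the arrays centred on their medians, the median change of the 10 genes was 0.51 in place of 0.54. The 21428 probe sets carry locus names, per the file headers, and 21231 matched the RefSeq table of TAIR10.1. The sources used here name no genome build, and 0 columns were left unused.

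All 6 arrays entered a limma 3.58.1 fit (R 4.3.3, lmFit and eBayes, two-sided, no filter), with Benjamini-Hochberg adjustment over all probe sets and a threshold of 0.05. The procedure was tested on simulated data. The number of arrays, 3 per genotype, limits the precision.

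The 10 genes, the lists and the settings were chosen with earlier results of these data known. Named are the 10 genes, AN3, AT3G15460, RBL and the LSG1 genes, pathway genes that passed or had the 3 largest or smallest changes of their list, and the 8 probe sets nearest in profile. NMD3, EIF6A and RPL5A were named after their values were seen.

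Same-numbered arrays deviated together (correlations of deviations from the genotype means of 0.161, 0.416 and 0.494, each above 0.1), so blocked counts are given where they differ. Other settings were median centring, repeated quantile normalization, leaving out the weakest 25% or 50% of probe sets, a trended robust prior, array weights and leaving out arrays.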

Additional observations from a re-analysis of the deposited data

How the results depend on the processing

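The log2 changes of the 10 large-subunit factors cannot move in 4 of the 14 other settings, which alter only the error or the adjustment, and were positive in the 100 combinations of gene and setting that remain. Their median of 0.54 ranged from 0.487 (wild type replicate 2 left out) to 0.588 (AN3-GR replicate 2 left out), and was 0.536 without both arrays of replicate 3, a setting added after the data were seen.

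Counts past the threshold in limma depended on the setting, and the cause was not tested. With the replicate block, 1420 probe sets, 23 other nuclear factors, 4 late factors, 18 processome genes and 1 ribosomal protein gene passed, in place of 169, 7, 0, 4 and 0. Array weights gave 1132, 21, 3, 16 and 1. A trended and robust prior gave 558, 17, 3, 16 and 1. With the weakest 50% left out, where fewer probe sets share the adjustment, the counts were 564, 19, 3, 15 and 0. Median centring gave 3 nuclear factors, and 3 processome genes in place of 4. Without single arrays the ranges were 9 to 779 probe sets, 0 to 12 nuclear factors, 0 to 2 late factors, 0 to 7 processome genes and 0 ribosomal protein genes throughout. Without replicate 3 they were 74, 0, 0, 2 and 0. The search of promoter motifs and its shorter window were not run.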

Other observations

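The 10 genes lie on 4 chromosomes, 3 each on chromosomes 1 and 5 and 2 each on chromosomes 2 and 3, by the gene order of the RefSeq table. Of the 20 protein-coding genes next to them, 17 were measured, and these had a median log2 change of −0.01, 8 of them positive. In limma 0 of the 17 passed after adjustment, against 169 of all 21428 probe sets. An unadjusted p under 0.05 was reached by 2 of the 17, where 10.1% of all probe sets were higher and 7.86% lower. The neighbours with the largest changes were emb1974, beside NSN1, at 0.51 (SE 0.12, limma adjusted p = 0.0827), and JAZ6, a repressor of jasmonate responses beside SWA2, at −0.58 (SE 0.11, limma adjusted p = 0.0502). With the replicate block JAZ6 passed, at a limma adjusted p of 0.0329, and it was the only one of the 17 to do so. In that fit 1420 of all 21428 probe sets passed. BRX1-2 and NUG2 are separated by only 3 protein-coding genes on chromosome 1. Of these, AT1G52950 and DD11 were measured, with changes of 0.03 (SE 0.09) and −0.01 (SE 0.10) at levels of 3.12 and 3.43, within the weakest 25% of the array.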
